A study of Mus musculus with 6 samples.

Results

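Genes of the mesothelium and of simple epithelium were read in RNA from mouse aorta. The members were the 10 rows of the gene count table with the symbols Msln, Upk3b, Upk1b, Lrrn4 and Wt1 for the mesothelial lining, and Krt8, Krt18, Krt19, Epcam and Cdh1 for simple epithelium, out of 55335 rows in all. The study compared wild-type mice of the C57BL/6 strain (written c57b6l in the labels) aged 6 weeks (young, 3 mice) with wild-type mice aged 6 months (aged, 3 mice), which the study's methods give as male, with no treatment in either group and 1 library per mouse. A piece of vessel was taken from each mouse after the surrounding fat had been dissected away. Reads were single-ended, and levels are given as CPM (counts for each 1000000 of the TMM-normalized library size) or, between genes, as the authors' FPKM, which also divides by gene length. Gene positions are whole gene spans in GENCODE M21 on GRCm38.

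The mesothelium is a sheet of flat cells that lines the pleural, pericardial and peritoneal cavities and covers the organs inside them. It arises from mesoderm but carries keratin filaments and surface proteins as an epithelium does. Keratin filaments are built from pairs of a type I chain, such as Krt18 or Krt19, with a type II chain, such as Krt7 or Krt8. Classical epithelium of gut, airway or gland adds the adhesion proteins Epcam and E-cadherin, the product of Cdh1. The wall of the aorta itself consists of endothelium, smooth muscle and adventitial fibroblasts.

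Total counts lay between 31049632 and 45832185 per library, so that 3 counts correspond to between 0.0619 and 0.106 CPM. Intervals and floors given here cover counting error only. The defining markers of the vessel were present in every library, with Acta2 of smooth muscle between 12230 and 18120 CPM and Pecam1 of endothelium between 166.6 and 869.9 CPM. Young replicate 1 stood apart from the male sex that the study's methods give. Its Xist was at 305.6 CPM against at most 0.636 CPM elsewhere, and its Y-linked Ddx3y at 1.09 CPM against at least 44.8 CPM. It also had the most RNA of heart muscle. Results of the members that rest on it are given without it as well, and those of single other genes are not. In bulk tissue, fewer cells of a type and less RNA per cell cannot be told apart.

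The mesothelial genes were abundant in young replicate 2 and aged replicate 3 and low in young replicate 1 and aged replicate 1, with 0 to 47 counts per gene, and Wt1 was also low in young replicate 3. Msln (chromosome 17, 25748613 to 25754378, minus strand) encodes mesothelin, a surface protein anchored in the membrane of mesothelial cells. It was at 0.495, 16.9 and 2.80 CPM in young replicates 1, 2 and 3 and at 0.120, 2.25 and 19.0 CPM in aged replicates 1, 2 and 3. The groups overlapped, and within the young group the highest library was 34.1 times the lowest. The separate row of its relative Mslnl was highest in CPM in young replicate 2 and in aged replicate 2, with 161, 220 and 151 counts in the young and 79, 111 and 42 in the aged replicates 1, 2 and 3. In aged replicate 1 the level of Msln rested on 4 counts, with an exact 95% Poisson interval from 0.0328 to 0.308 CPM, against 538 counts in aged replicate 3.

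The uroplakins are membrane proteins best known from the plaques of the bladder surface, and Upk3b and Upk1b are also made by mesothelium. Upk3b (chromosome 5, 136038496 to 136046487, plus strand), the most abundant of the 5 mesothelial members per length with a mean of 3.25 FPKM, was at 0.970, 32.4 and 2.86 CPM in young replicates 1, 2 and 3 and at 0.812, 6.81 and 33.3 CPM in aged replicates 1, 2 and 3. Its highest library was 33.4 times its lowest among the young and 41.0 times among the aged mice, while the highest young and the highest aged library had nearly the same level. Upk1b (chromosome 16, 38773184 to 38800328, minus strand) had 0 counts in young replicate 1 and in aged replicate 1, was at 5.35 and 0.554 CPM in young replicates 2 and 3, and at 0.981 and 5.31 CPM in aged replicates 2 and 3. The same libraries were thus high and low for both uroplakins. Of the other uroplakins, Upk1a lay between 0.230 and 0.716 CPM, above Upk1b in young replicate 1 and aged replicate 1, and Upk3bl reached 0.331 CPM. Upk2 and Upk3a had 0 counts in all 6 libraries, where the floor of 3 counts is at most 0.106 CPM.

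Lrrn4 (chromosome 2, 132868305 to 132880891, minus strand) encodes a membrane protein with leucine-rich repeats. It was at 0.103, 6.04 and 1.40 CPM in young replicates 1, 2 and 3 and at 0.0903, 2.81 and 7.40 CPM in aged replicates 1, 2 and 3, again highest in young replicate 2 and aged replicate 3. Wt1 (chromosome 2, 105126529 to 105173616, plus strand) encodes a zinc finger transcription factor of the developing kidney, gonad and mesothelium and was the scarcest mesothelial member, with 156 counts over all libraries. It was at 0.434, 1.09 and 0.0874 CPM in young replicates 1, 2 and 3 and at 0, 0.636 and 2.48 CPM in aged replicates 1, 2 and 3. Unlike the other mesothelial members it was higher in young replicate 1, with 21 counts, than in young replicate 3, with 3 counts. The separate row of Wt1os, a transcript named for the opposite strand of Wt1, had 7, 5 and 6 counts in young replicate 2, aged replicate 2 and aged replicate 3, and 0 in the other libraries. Whether the counting used strand is not given in the sources used here.

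**Figure D1:**
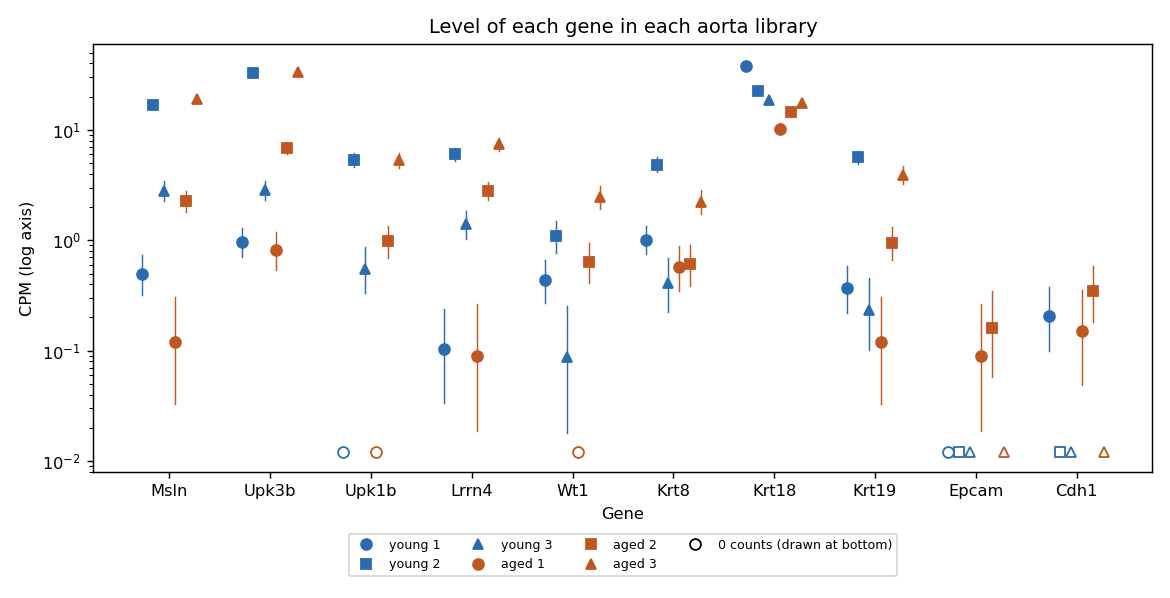
Level in CPM on a log axis for each of the 10 genes in each of the 6 libraries, with young mice in blue and aged mice in orange; vertical lines are exact 95% Poisson intervals and open symbols at the bottom are libraries with 0 counts. The square of young replicate 2 and the triangle of aged replicate 3 lie highest in their groups for Msln, Upk3b, Upk1b, Lrrn4, Wt1, Krt8 and Krt19, while Krt18 lies between 10.3 and 38.2 CPM in every library.

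Krt19 (chromosome 11, 100140810 to 100148665, minus strand), a small type I keratin of simple epithelium and mesothelium, was also highest in young replicate 2 and aged replicate 3. It was at 0.371, 5.63 and 0.233 CPM in young replicates 1, 2 and 3 and at 0.120, 0.954 and 3.93 CPM in aged replicates 1, 2 and 3. As for Wt1, young replicate 1 lay above young replicate 3. Krt8, the type II keratin of simple epithelium, was at 1.01, 4.86 and 0.408 CPM in the young and at 0.572, 0.610 and 2.23 CPM in the aged replicates 1, 2 and 3. Krt8 was therefore also highest in young replicate 2 and aged replicate 3, but with a smaller range than Krt19, 11.9 times among the young and 3.90 times among the aged mice. The row of the pseudogene Krt8-ps, which may share reads with Krt8, was at 6 counts in young replicate 1, at 7 in young replicate 2 and at 0 elsewhere.

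Krt18, the type I partner of Krt8, differed from the other members. It was at 38.2, 22.6 and 18.8 CPM in young replicates 1, 2 and 3 and at 10.3, 14.4 and 17.5 CPM in aged replicates 1, 2 and 3. Every aged library lay below every young library, and the libraries low in mesothelial genes still held Krt18 reads, 1851 in young replicate 1 and 342 in aged replicate 1. Per length it was the most abundant of the 10 members, between 6.10 and 25.3 FPKM, where Krt19 reached 2.96 FPKM and Krt8 2.42 FPKM at most. Krt8 and Krt18 are neighbours on chromosome 15, with 23697 bases between them, where Krt8 runs from 101996698 to 102004482 and Krt18 from 102028180 to 102032027.

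The count of Krt18 was 37.8, 4.64 and 46.1 times that of Krt8 in young replicates 1, 2 and 3 and 18.0, 23.6 and 7.84 times in aged replicates 1, 2 and 3. The excess was smallest in young replicate 2 and aged replicate 3 and did not follow age. On the log2 scale, Krt8 minus Krt18 averaged -4.30 in the young group (SD 1.82, n = 3) and -3.88 in the aged group (SD 0.817, n = 3), which differ by 0.43 (exact two-sided permutation test, p = 0.7, where 3 mice against 3 cannot go below 0.1). That difference is smaller than the SD of 1.41 within groups and its sign depended on the libraries used, being -0.16 without young replicate 3, -0.03 without young replicate 1 and -0.03 without aged replicate 3.

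Epcam and Cdh1 had at most 13 counts in any library and did not pass the filter on low counts. Epcam (chromosome 17, 87635979 to 87651129, plus strand), an adhesion protein of most epithelia, had 3 counts in aged replicate 1, 6 counts in aged replicate 2, or 0.159 CPM, and 0 in the other 4 libraries. Cdh1 (chromosome 8, 106603351 to 106670246, plus strand), the cadherin of epithelial junctions, had 10, 5 and 13 counts in young replicate 1, aged replicate 1 and aged replicate 2, at most 0.345 CPM, and 0 in the other 3 libraries. In young replicate 2 and aged replicate 3, where the mesothelial genes were highest, both genes had 0 counts. Of the 5 genes grouped under simple epithelium, the 3 keratins were thus measured above the floor in every library and these adhesion genes were not.

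**Figure D2:**
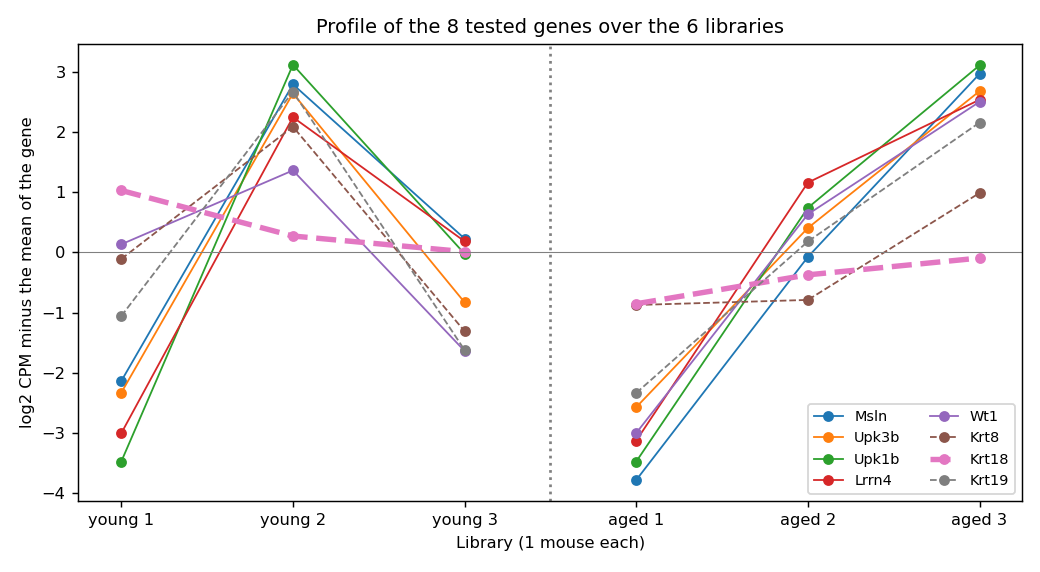
Log2 CPM of each of the 8 tested members minus its own mean over the 6 libraries, with the 3 young libraries left and the 3 aged libraries right of the dotted line; lines only join the values of a gene. Msln, Upk3b, Upk1b, Lrrn4, Wt1, Krt8 and Krt19 peak in young replicate 2 and aged replicate 3, and Krt18, drawn thick, peaks in young replicate 1.

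Of the 8 members that passed the filter, 7 had young replicate 2 as the highest young and aged replicate 3 as the highest aged library, all but Krt18. Among all 16612 genes tested, 8.93% had that combination. Aged replicate 3 was the highest aged library for all 8 tested members, as it was for 29% of all tested genes. The SD of log2 CPM between libraries of the same age was 3.32 for Upk1b, 2.96 for Msln, 2.81 for Lrrn4, 2.60 for Upk3b, 2.30 for Krt19, 2.25 for Wt1 and 1.43 for Krt8. Over all tested genes the median SD was 0.348 and the 95th percentile 1.35. An SD as large as that of Msln was reached by 31 genes, or 0.187% of those tested, while 36.9% reached the SD of 0.463 of Krt18.

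**Figure D3:**
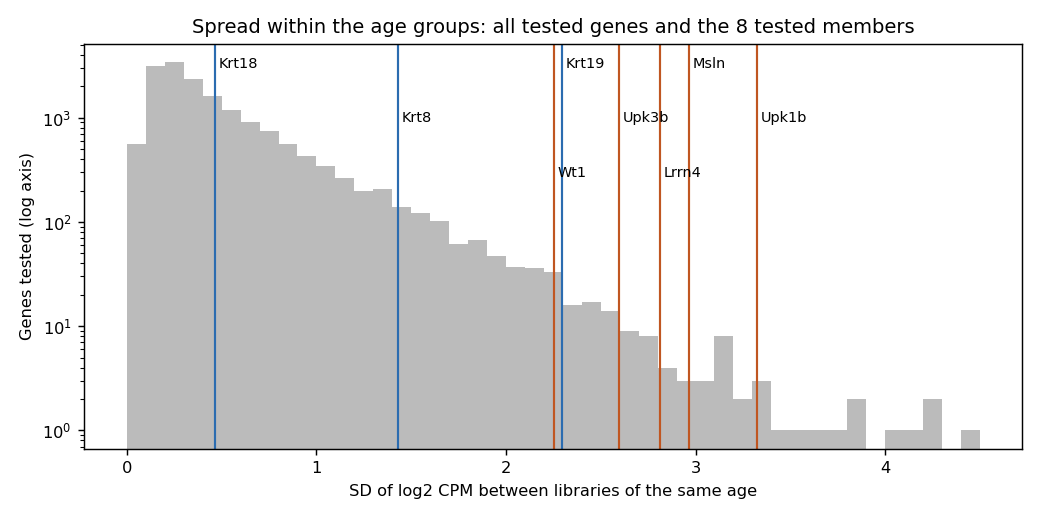
Histogram, with a log axis of gene numbers, of the SD of log2 CPM between libraries of the same age for the 16612 tested genes; vertical lines mark the tested members, orange for mesothelial genes and blue for keratins. The median gene is at 0.348, and the 5 mesothelial members and Krt19 lie between 2.25 and 3.32, in the far right tail.

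Promoter sequences were found in RefSeq (GRCm38.p6) for 5 of the 10 members, namely Upk3b, Lrrn4, Krt8, Krt18 and Epcam. Stretches just upstream of the outermost annotated start are shown for Upk3b and Lrrn4, which shared the library profile, and for Krt18, which did not, each 5′ to 3′ on the strand of the gene. Capitals mark GGAATG, the core that TEAD factors bind, and CACCTG, an E-box core, on either strand.
Upk3b, chr5:136038246-136038495, plus strand: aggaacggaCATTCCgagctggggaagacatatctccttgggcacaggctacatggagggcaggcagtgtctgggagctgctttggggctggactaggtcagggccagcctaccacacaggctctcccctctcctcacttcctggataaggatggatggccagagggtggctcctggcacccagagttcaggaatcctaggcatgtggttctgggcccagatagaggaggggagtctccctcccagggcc
Lrrn4, chr2:132880892-132881112, minus strand: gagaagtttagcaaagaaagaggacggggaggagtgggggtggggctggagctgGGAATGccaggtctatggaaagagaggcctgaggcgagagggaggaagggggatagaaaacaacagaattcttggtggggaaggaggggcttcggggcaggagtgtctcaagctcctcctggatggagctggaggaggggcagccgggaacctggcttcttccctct
Krt18, chr15:102027966-102028179, plus strand: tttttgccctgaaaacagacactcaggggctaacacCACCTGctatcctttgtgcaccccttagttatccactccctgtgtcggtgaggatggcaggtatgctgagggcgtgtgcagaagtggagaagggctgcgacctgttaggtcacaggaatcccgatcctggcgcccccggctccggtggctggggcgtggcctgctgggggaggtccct

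In windows of 300 bases, from 250 before to 50 after the RefSeq start, GGAATG was found on either strand for Upk3b and Lrrn4, starting at -241 and -196, and not for Krt8, Krt18 or Epcam. Of 32851 such windows in the table, 14.7% hold it. CACCTG was found for Krt18 at -214, for Krt8 at -111 and for Epcam at -187 and -19, against 20.2% of all windows, and not for Upk3b or Lrrn4. Krt8 was highest in the same young and aged libraries as Upk3b and Lrrn4 but had CACCTG and no GGAATG, as Krt18 did. TATAAA was found for Krt8 only, where it spans the RefSeq start (13.6% of all windows), and the GC box GGGCGG for Epcam only (35.7% of all windows). GCGNGGGNG, a site type shared by EGR factors and WT1, was found in none of these 5 windows and in 12.3% of all windows. These matches describe letters and not binding.

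Age was compared by edgeR's quasi-likelihood test over all 16612 genes that passed the filter, with Benjamini-Hochberg adjustment. No member was called at an adjusted p below 0.05, and neither was any other gene (0% of those tested). DESeq2, run as an alternative, called 2.03% of all genes and 0 of the 8 tested members. At an unadjusted p below 0.05 there was 1 of 8 tested members, Krt18, against 10.4% of all genes tested (4.82% lower and 5.56% higher in aged aorta), so that the share of members lay near the background. The fitted value was above 0 for 5 of the 8 and below 0 for 3, and its median was 0.09 on the log2 scale beside 0.02 over all genes.

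The standard errors of the mesothelial members were larger than their fitted changes. Msln averaged 6.72 ± 8.86 CPM in the young group and 7.14 ± 10.4 CPM in the aged group (SD, n = 3 each), with a log2 fold change of 0.09 and a standard error of 1.56 (edgeR adjusted p = 0.989). Upk3b was at 12.1 ± 17.6 and 13.6 ± 17.3 CPM (SD, n = 3 each), with a log2 fold change of 0.17 and a standard error of 1.45 (edgeR adjusted p = 0.976). In each group of both genes the SD exceeded the mean. The log2 fold changes of Upk1b, Lrrn4 and Wt1 were 0.09, 0.45 and 0.94, with standard errors of 1.84, 1.45 and 1.41 and edgeR adjusted p of 0.990, 0.928 and 0.830.

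The direction depended on which libraries were in the fit, most of all on the high ones. Without young replicate 2, the log2 fold change was 2.14 for Msln, 2.85 for Upk3b, 2.97 for Upk1b, 2.22 for Lrrn4 and 1.96 for Wt1. Without aged replicate 3, it was -2.48 for Msln, -1.65 for Upk3b, -1.97 for Upk1b, -0.78 for Lrrn4 and -0.74 for Wt1. Krt19 moved in the same way, from -0.32 with all libraries to 2.45 and -1.93, and so did Krt8, from -0.88 to 0.67 and -1.81. Leaving out a low library changed some signs as well. Without young replicate 1, the log2 fold change was -0.45 for Msln, -0.36 for Upk3b, -0.49 for Upk1b, -0.11 for Lrrn4 and 0.82 for Wt1. Without young replicate 3, it was -0.27 for Msln, -0.28 for Upk3b, -0.34 for Upk1b, 0.18 for Lrrn4 and 0.45 for Wt1. Krt19 was at 0.23 without aged replicate 1. No adjusted p of these 7 genes fell below 0.679 in any of these or the other alternative fits.

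Krt18 had the lowest p of the 8 tested members. Its mean was 26.5 ± 10.3 CPM in the young group and 14.1 ± 3.61 CPM in the aged group (SD, n = 3 each), 0.529 times as much by the fit, with a log2 fold change of -0.92 and a standard error of 0.32. Its unadjusted p was 0.0227 and its adjusted p 0.418 by edgeR, and the adjusted p lay between 0.181 and 0.765 over the alternatives. It was the only tested member whose groups did not overlap. Of all tested genes, 16.5% had groups that did not overlap, 8.78% with the aged libraries lower and 7.74% with them higher. The log2 fold change stayed negative in all 14 alternatives, and its unadjusted p rose to 0.0902 without young replicate 1, where it was -0.55, to 0.0727 without aged replicate 1, where it was -0.74, and to 0.0694 with the replicate number as a block. The 2 remaining young libraries, at 22.6 and 18.8 CPM, still lay above the highest aged library at 17.5 CPM. The exact 95% Poisson intervals of young replicate 3, from 17.4 to 20.3 CPM, and aged replicate 3, from 16.0 to 19.1 CPM, overlapped.

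**Figure D4:**
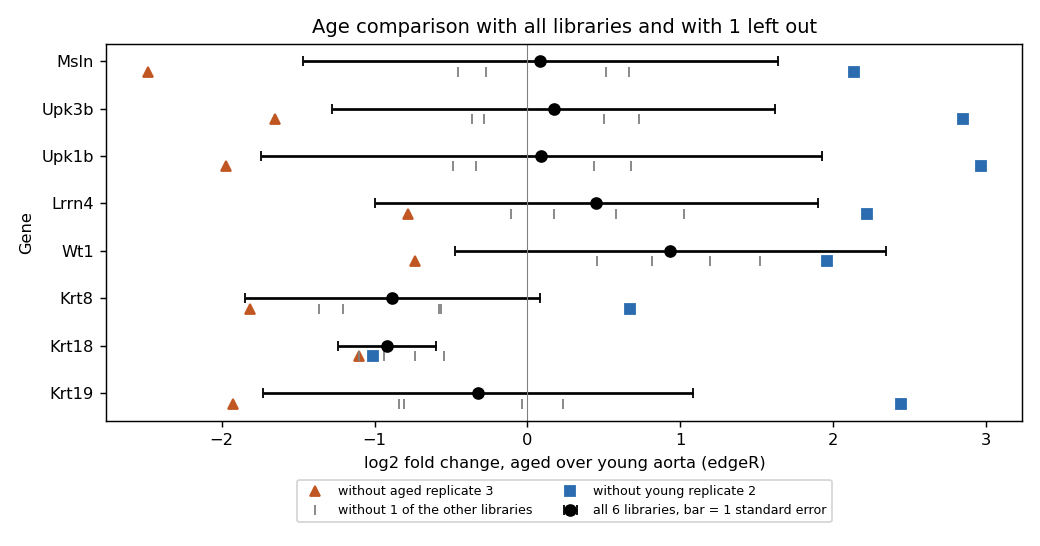
Log2 fold change of aged over young aorta from edgeR for the 8 tested members, with black points and bars for all 6 libraries and 1 standard error, blue squares for the fit without young replicate 2, orange triangles for the fit without aged replicate 3 and grey marks for the other libraries left out. Squares and triangles fall on opposite sides of 0 for each gene except Krt18, which stays between -1.10 and -0.55.

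Other genes of the same kind were read from lists written beside the members. Of 13 other mesothelial genes, 12 were tested, 0 passed an adjusted p of 0.05, and 9 of the 12 had young replicate 2 and aged replicate 3 highest (8.93% of all genes). Their median log2 fold change was 0.39. Muc16, the large mucin that binds mesothelin, was at 0.103, 7.07 and 0.612 CPM in young and at 0, 0.716 and 6.72 CPM in aged replicates 1, 2 and 3. Bnc1, a zinc finger protein of mesothelium and stratified epithelium, was seen in 3 libraries only, at 4.08 CPM in young replicate 2 and at 0.663 and 1.95 CPM in aged replicates 2 and 3. The most abundant of the list per length did not have this profile or had it weakly. Tbx18, a transcription factor of epicardium and of mural cells, had a log2 fold change of -0.88 (unadjusted p = 0.0148, adjusted p = 0.390 by edgeR), and Cldn15, a claudin, lay between 3.28 and 13.5 CPM. Ildr2 was at an unadjusted p of 0.0261 in the other direction, with a log2 fold change of 1.58 (edgeR adjusted p = 0.429).

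The genes closest to the mean profile of the 5 mesothelial members were sought among 14078 other genes that averaged 1 CPM or more. Closeness was the root mean square difference of centred log2 CPM over the 6 libraries, which was 2.24 for the median gene. The closest was Muc16 at 0.50, followed by Cyp2s1 at 0.63, Krt7 at 0.70, Slc26a3 at 0.80 and Cybrd1 at 0.87. The next were Nxpe2, Bnc1, Zbtb42, Pcdhb19 and Zhx3, between 1.02 and 1.12. Of these 10, 3, Muc16, Krt7 and Bnc1, were on the list of other mesothelial genes. For comparison, Krt19 was at 0.82, Krt8 at 1.61 and Krt18 at 2.22, so Krt18 was about as far from the mesothelial profile as the median gene. The measure is not scaled for spread, so a gene that varies little is also far from this wide profile. It therefore does not tell whether Krt18 followed or opposed the profile.

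Of 54 numbered keratin genes in the table, 32 had 0 counts in all libraries and 8 were tested. Krt7, a type II keratin of ducts and mesothelium, was at 0.495, 6.50 and 0.437 CPM in young and at 0.120, 1.83 and 4.14 CPM in aged replicates 1, 2 and 3, the same order as the mesothelial genes in the aged group. Krt80, a type II keratin, was next to Krt18 in level per length, with a mean of 3.45 FPKM against 13.1 FPKM, and its CPM lay between 11.8 and 63.6, with a log2 fold change of 0.91 (edgeR adjusted p = 0.584). Of the 11 keratins of stratified epithelium on the list, Krt10 alone was tested, between 0.949 and 1.50 CPM, Krt14 was the next by FPKM with at most 0.319 CPM, and Krt1, Krt4, Krt6a and Krt6b had 0 counts in all libraries. None of the 8 tested keratins passed an adjusted p of 0.05.

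Among 22 genes of epithelial junctions and identity, 7 were tested. Of these, 2 had an unadjusted p below 0.05, both lower in aged aorta, against 4.82% of all tested genes in that direction. Dsp, which encodes the desmosomal protein desmoplakin that ties keratin or desmin filaments to the membrane, was at 307.0, 208.8 and 231.2 CPM in young and at 109.6, 143.3 and 157.3 CPM in aged replicates 1, 2 and 3, with a log2 fold change of -0.87 and a standard error of 0.22 (unadjusted p = 0.00476, adjusted p = 0.377 by edgeR). Cdh3, which encodes P-cadherin, was at 13.9, 12.6 and 12.7 CPM in young and at 7.10, 5.67 and 7.36 CPM in aged replicates 1, 2 and 3, with a log2 fold change of -0.96 and a standard error of 0.20 (unadjusted p = 0.0017, adjusted p = 0.360 by edgeR). For both genes the groups did not overlap, as for 8.78% of all tested genes with the aged libraries lower. Young replicate 1 was the highest young library of both, and a fit without it is not given for them. Spint2, a protease inhibitor and the next most abundant of the list per length after Dsp, lay between 47.4 and 62.2 CPM. Of the epithelial regulators, Grhl2, Esrp1 and Elf3 had at most 5 counts in any library. Esrp2, a splicing regulator that was not tested, had 7, 41 and 0 counts in young and 0, 12 and 11 counts in aged replicates 1, 2 and 3. It was highest in young replicate 2, at 1.18 CPM. In aged replicates 2 and 3 it was at the close values of 0.318 and 0.389 CPM. Of the 7 tested genes of this list, 2 had young replicate 2 and aged replicate 3 highest (8.93% of all tested genes). Ap1m2 had 0 counts.

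Other filament and adhesion genes covered a wide range of levels. Of 7 tested genes of other intermediate filaments, 0 had an unadjusted p below 0.05, and Vim, the filament protein of mesenchymal cells, lay between 2782 and 3860 CPM and the nuclear lamin gene Lmna between 323.0 and 431.4 CPM. Of the 7 other classical cadherins, Cdh3 alone had an unadjusted p below 0.05, the most abundant per length were Cdh13, between 266.5 and 507.1 CPM, and Cdh5 of endothelial junctions, between 32.1 and 106.0 CPM, and Cdh4 had the lowest mean, 0.488 FPKM. Of the 4 catenins, which link cadherins to the cytoskeleton, Ctnnb1 and Ctnna1 were the most abundant per length, at means of 80.2 and 28.2 FPKM, and Ctnnd1 had a log2 fold change of -0.49 (unadjusted p = 0.0305, adjusted p = 0.443 by edgeR).

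Markers of neighbouring tissues were summed in each library and set beside the mesothelial genes. The 5 mesothelial members summed to 2.002, 61.8 and 7.69 CPM in young and to 1.02, 13.5 and 67.5 CPM in aged replicates 1, 2 and 3. Adipocyte markers ranged from 376.7 to 1140 CPM in young and from 607.4 to 1837 CPM in aged aorta and were highest in young replicate 2 and aged replicate 2. Markers of brown adipocytes, from 82.6 to 567.4 and from 74.0 to 1793 CPM, were highest in the same libraries. Endothelial markers summed to 1563 CPM in aged replicate 3 and to between 316.9 and 461.0 CPM elsewhere.

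The sum of thymocyte markers was low but highest in the libraries rich in mesothelial genes, at 5.14 CPM in young replicate 2 and 2.23 CPM in aged replicate 3 against at most 1.08 CPM elsewhere. Most of it in young replicate 2 was Dntt, Rag1 and Cd8b1, with 58, 52 and 34 counts. Rag2 had 0 counts there and 15 in young replicate 3. Cd4, the only tested gene of the list, was highest among the aged mice in aged replicate 1, at 0.843 CPM, and lowest in aged replicate 3, at 0.354 CPM. Ptcra of that list had 0 counts throughout. Markers of thymic epithelium ranged from 1.86 to 3.85 CPM, most of it Ccl25 in every library, with Foxn1 at 0 counts. Markers of lung epithelium ranged from 0.843 to 3.71 CPM with Nkx2-1 at 0, and those of oesophagus from 0.106 to 1.30 CPM with Krt4, Krt6a and Sprr3 at 0. Heart muscle markers summed to 309.0 CPM in young replicate 1, the library with the highest Krt18, and to between 47.4 and 68.2 CPM in the others. Fibroblast markers ranged from 1715 to 2724 CPM in young and from 1550 to 5973 CPM in aged aorta. Macrophage markers summed to between 74.3 and 94.4 CPM in young and to between 101.4 and 304.9 CPM in aged aorta, so that the sums did not overlap. Among single genes, 7.74% of those tested had groups that did not overlap with the aged libraries higher. Of the 5 macrophage genes, 5 were higher in aged aorta at an unadjusted p below 0.05 (5.56% of all tested genes) and 0 passed the adjusted threshold. At the same unadjusted p, 3 of the 5 fibroblast genes were higher. Lower in aged aorta (4.82% of all tested genes) were 3 of 5 tested heart muscle genes, 2 of 5 smooth muscle genes and 1 of 3 tested lung epithelium genes. No gene of the endothelial, adipocyte, thymic, thymocyte or oesophagus lists was below it. The fibroblast and macrophage sums were both highest in aged replicate 1, where the mesothelial genes summed lowest. They were next highest, at 4332 and 203.6 CPM, in aged replicate 3, where the mesothelial genes summed highest. The part of these tissues in the levels of the members was not tested.

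**Figure D5:**
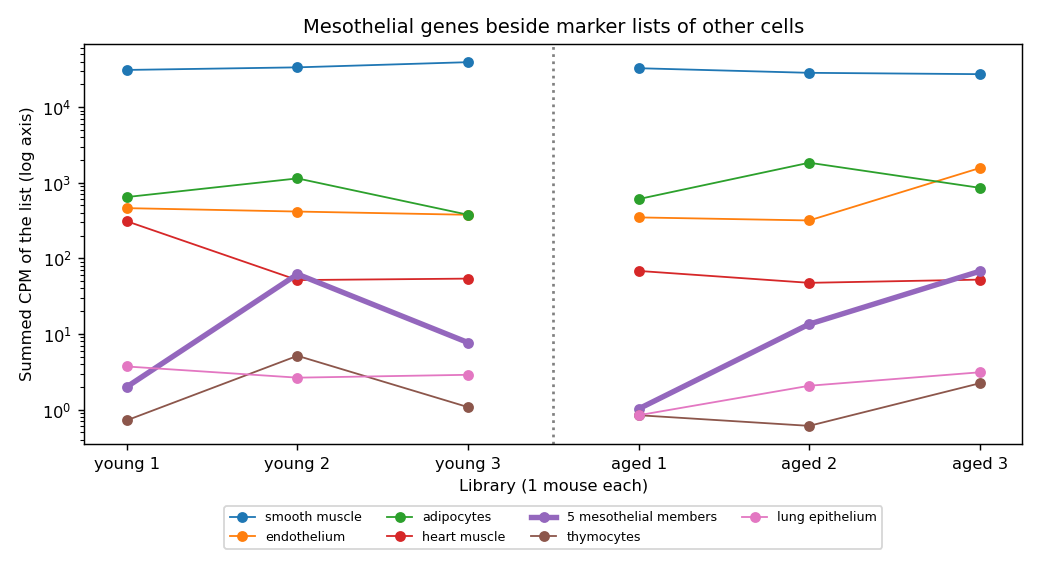
Summed CPM, on a log axis, of the 5 mesothelial members (thick line) and of marker lists of other cells in each library, with young libraries left and aged libraries right of the dotted line; lines only join the values of a list. The mesothelial sum runs from 1.02 to 67.5 CPM, while smooth muscle markers stay between 27240 and 39240 CPM.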

How the data were processed

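Aorta RNA of 6 mice was sequenced as single-ended reads from a SMARTer library. The authors deposited whole-number read counts per gene, without normalization, and FPKM made from the same libraries. The submitters' processing notes name mm10, and the aligner, counter and annotation are not given in the sources used here. Gene positions come from GENCODE M21 (GRCm38), which holds 55154 of 55335 identifiers.

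Genes of low counts were removed by filterByExpr of edgeR 4.0.16, with 10 as the minimum count and 15 as the minimum total, and the rest were normalized by TMM and fitted by quasi-likelihood without covariates in R 4.3.3. Log2 CPM used a prior count of 2, and the Krt8 to Krt18 ratio a pseudocount of 0.5. Standard errors are the log2 fold change divided by the square root of F. The code was tested on simulated data.

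The alternatives were RLE factors, other filters, a block for the replicate number, fits lacking 1 library, DESeq2 1.42.0 and limma 3.58.1 on log2(FPKM + 1) or log2(FPKM + 0.1). All members are named, from each related list the 2 genes of highest mean FPKM and those with an unadjusted p below 0.05, and from lists of other cells the sums and the genes at 0. Muc16, Bnc1, Acta2, Pecam1, Ccl25, Cd4, Cd8b1, Dntt, Rag1, Rag2, Cdh4, Grhl2, Esrp1, Esrp2, Elf3 and Mslnl were chosen after their values were seen. The counts of genes at an unadjusted p below 0.05 in lists of other cells were also added after their values were seen. Members and lists were chosen with earlier results of these data known.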

Additional observations from a re-analysis of the deposited data

How the results depend on the processing

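With 3 mice per age, the within-group SDs of log2 CPM of the mesothelial genes were up to 3.32. The smallest change that could be detected was not computed. Without young replicate 2, a fitted log2 fold change of 2.85 for Upk3b had an edgeR adjusted p of 0.717. The labels give no batch. The count of 0 genes called by edgeR became 338 with DESeq2 (2.03% of those tested, no member among them) and lay between 0 and 110 with 1 library left out, the latter without aged replicate 2. At an unadjusted p below 0.05 edgeR had 1723 genes. The count of 0 members called held in every alternative. The count of 1 member at an unadjusted p below 0.05, Krt18, became 0 with the replicate block and lay between 0 and 1 with 1 library left out, being 0 without young replicate 1 and without aged replicate 1. The difference of 0.43 in the Krt8 to Krt18 ratio lay between -0.16 and 1.48 with 1 library left out, the latter without young replicate 2.

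With 1 library left out, the log2 fold change lay between -2.48 and 2.14 for Msln, -1.65 and 2.85 for Upk3b, -1.97 and 2.97 for Upk1b, -0.78 and 2.22 for Lrrn4, -0.74 and 1.96 for Wt1, -1.81 and 0.67 for Krt8 and -1.93 and 2.45 for Krt19. It also reversed for Msln to -0.75 and for Wt1 to -0.16 with the replicate block, and with limma to -0.16 (pseudocount 1, with or without the filter) and -0.51 (pseudocount 0.1) for Msln and to -0.015 (pseudocount 1, with or without the filter) for Upk1b. Limma on FPKM moved the median of all genes to -0.12 and -0.20 with the filter. The cause was not tested. Deviations of libraries with the same replicate number correlated at 0.079, 0.117 and 0.096, and those with different numbers between -0.134 and 0.055. Each library was closest to its own number, but the correlations were low, and this check does not settle whether mice were paired by number. The block left the count of called genes at 0.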
